A study of Mus musculus with 9 samples.

Results

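Hypoxic remodelling of mitochondria was followed through 9 genes for respiratory-chain subunits and other mitochondrial proteins in mouse alveolar macrophages that had lost Vhl. The genes were listed by name, from their known roles, with earlier results of these data known. They are Ndufa4l2, Ndufa4, Cox4i1, Cox4i2, Lonp1, Higd1a, Pdk1, Mgarp and Fam162a, and 8 of them are among the 12003 genes of the deposited table. Cox4i2 was not analysed here. Alveolar macrophages live in the air spaces of the lung, and their poly(A) RNA was read on a HiSeq 2500 in reads of 61 bases. The Vhl knockout, Vhl(flox/flox) / CD11c (cre/+), has loxP sites around both Vhl alleles and Cre driven by CD11c. The floxed control, Vhl(flox/flox) / CD11c (+/+), has the same alleles without Cre. The Cre control, Vhl(+/+) / CD11c (cre/+), has Cre and wild-type Vhl. Each genotype has 3 libraries, and each library is a pool of lavage cells from 5 to 7 untreated, sex-matched mice of 8 to 12 weeks on a C57BL/6 background. The cells were selected with beads against CD11c, a protein that dendritic cells also carry, so Cre and the beads act on more than 1 cell type.

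VHL is part of a ubiquitin ligase that binds hydroxylated HIF alpha subunits and sends them to the proteasome. Without it, HIF acts as it does in low oxygen. HIF is known to move energy production away from respiration. PDK1 shuts off pyruvate entry into the citric acid cycle, NDUFA4L2 lowers complex I activity, and in human cells COX4I2 takes the place of COX4I1 in complex IV (cytochrome c oxidase) while the LONP1 protease degrades COX4I1. HIF also acts on genes for mitochondrial transport, mitophagy and cell death.

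The HIF-binding core ACGTG or GCGTG was looked for in the 250 bases before each RefSeq start (GRCm38.p6), on both strands, so that CACGT and CACGC count as well. Of the 9 genes, 6 have such a window (Ndufa4, Higd1a, Mgarp, Lonp1, Pdk1 and Fam162a), and Pdk1 has a second start, which makes 7 windows. A core occurs in 5 of the 7 windows and in 38.6% of all 32851 windows in the table. Fam162a and Lonp1 have 6 matches each, a number of 4 or more being found in 2.58% of all windows. The 5 windows with a core hold 60.4% to 71.2% G and C, against a median of 52.4% over all windows. The Ndufa4 window holds 51.6% and the second Pdk1 window 38.4%. Both cores hold C next to G, and the shares were not adjusted for base content. The next stretches of promoter, cut to bases outside annotated exons, are shown because the 2 windows with 6 matches stand beside one with 1 match and one with none. Each is written 5′ to 3′ along the gene's strand, with the matched letters in capitals.
Fam162a, chr16:36071595-36071684, minus strand: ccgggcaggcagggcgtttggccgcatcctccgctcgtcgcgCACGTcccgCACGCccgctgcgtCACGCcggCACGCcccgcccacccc
Lonp1, chr17:56626904-56627153, minus strand: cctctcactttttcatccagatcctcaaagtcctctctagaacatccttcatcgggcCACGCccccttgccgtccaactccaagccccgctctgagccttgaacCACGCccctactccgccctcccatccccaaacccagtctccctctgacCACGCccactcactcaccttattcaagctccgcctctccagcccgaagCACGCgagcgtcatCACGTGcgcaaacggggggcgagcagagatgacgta
Pdk1, chr2:71872974-71873223, plus strand: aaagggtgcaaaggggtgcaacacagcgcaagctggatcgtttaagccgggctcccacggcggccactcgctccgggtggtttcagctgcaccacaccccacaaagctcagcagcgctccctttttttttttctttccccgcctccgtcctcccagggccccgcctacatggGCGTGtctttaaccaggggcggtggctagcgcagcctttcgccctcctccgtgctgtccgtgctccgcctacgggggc
Ndufa4, chr6:11907498-11907700, minus strand: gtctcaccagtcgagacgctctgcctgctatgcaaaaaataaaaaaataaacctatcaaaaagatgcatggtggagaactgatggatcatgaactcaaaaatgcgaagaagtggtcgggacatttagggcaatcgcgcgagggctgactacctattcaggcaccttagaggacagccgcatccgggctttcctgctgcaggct
In the Fam162a stretch, 4 of the 6 matches of the window are seen. The last matched run in Lonp1 is a palindrome, and its 2 overlapping matches are 1 position read on both strands. Higd1a has 2 matches, Mgarp 1, the first Pdk1 start 1, and the second Pdk1 start and Ndufa4 have 0. A match describes these letters and not a binding site.

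In the Vhl knockout 7 of the 8 measured genes changed. Ndufa4l2, Mgarp, Pdk1, Fam162a, Higd1a and Lonp1 rose, Ndufa4 fell, and Cox4i1 was not called, all against both controls together. Of all genes in the deposit, 39.8% were called in this comparison, 19.7% higher and 20.2% lower. A gene was called at a limma adjusted p under 0.05 on log2(value + 1), with adjustment over all 12003 genes and the spread shared by all 9 libraries. Against the floxed control and against the Cre control, which share the knockout libraries, the count was again 6 higher and 1 lower, where 34.3% (17.5% higher, 16.8% lower) and 34.0% (16.3% higher, 17.7% lower) of all genes were called. The median log2 fold change of the 8 genes was 1.86, beside -0.0022 over all genes. Ndufa4l2 and Mgarp met the deposit's own floor only through the knockout libraries, so both had to differ, and their calls, the count and the median are descriptions. For the same 7 genes the 3 knockout libraries and the 6 control libraries did not overlap, as was so for 37.7% of all genes (19.3% above and 18.5% below the controls). Values below are normalized reads, which are read counts scaled to library size without correction for gene length.

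**Figure D1:**
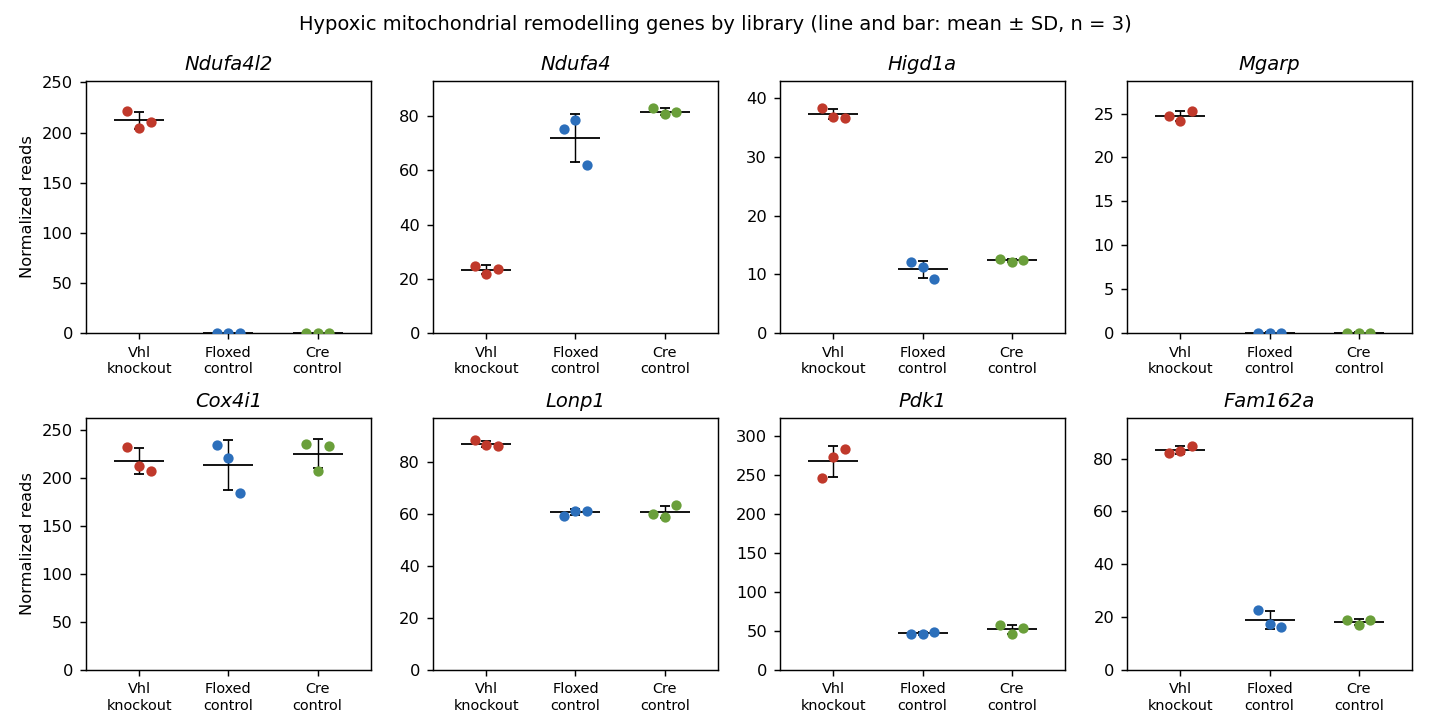
Normalized reads of the 8 measured genes, with 1 panel per gene and its own linear axis, in the Vhl knockout, the floxed control and the Cre control (points, single libraries; bars, mean ± SD, n = 3). The knockout points of Ndufa4l2, Mgarp, Pdk1, Fam162a, Higd1a and Lonp1 lie above all 6 control points, those of Ndufa4 lie below them, and those of Cox4i1 lie among them.

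The check of the deletion was Vhl itself. It had 2.02, 2.14 and 2.52 normalized reads in the knockout, against 14.9 to 21.0 in the floxed control and 21.9 to 25.3 in the Cre control (log2 fold change -2.75, limma adjusted p = 6.06e-08). Libraries held 18201116 to 25861174 reads, and 1 read is worth 0.0400 to 0.0565 normalized reads. Siglecf, a defining surface marker of alveolar macrophages, averaged 334 ± 8.94 normalized reads in the knockout, 469 ± 22.6 in the floxed control and 535 ± 69.9 in the Cre control (SD, n = 3 each), and it was called lower. Of the alveolar macrophage markers, 12 of 12 were measured, 4 were called higher (Fabp4, Pparg, Chil3 and Marco) and 3 lower (Krt79, Siglecf and Car4), with summed levels of 36852 to 49266 in the knockout, 28167 to 32118 in the floxed control and 27157 to 31680 in the Cre control. All 10 dendritic cell markers were called lower against both controls, 9 against the floxed control alone and 7 against the Cre control alone. Their sums were 55.8 to 67.0 in the knockout, 119 to 243 in the floxed control and 145 to 317 in the Cre control. Beside each marker count against both controls, 19.7% of all genes were called higher and 20.2% lower. Monocyte markers (8 of 8 measured, 3 called higher and 2 lower) summed to 285 to 301 in the knockout, 177 to 209 in the floxed control and 160 to 199 in the Cre control. The lower count was 1 without any single library other than knockout 2 or floxed control 2. Interstitial macrophage markers (6 of 8 measured, 1 called higher and 4 lower) summed to 17.6 to 26.7 in the knockout, 33.4 to 58.7 in the floxed control and 22.8 to 33.2 in the Cre control. Against the Cre control alone, 1 of them was called higher and 0 lower. No measured marker of these 4 lists was at 0 in every library of a genotype. Neutrophil markers (6 of 7 measured, 1 called higher and 0 lower) summed to 138 to 404 in the knockout, 200 to 666 in the floxed control and 94.3 to 325 in the Cre control. Lung epithelium markers (7 of 9 measured, 1 called higher and 2 lower) summed to 312 to 359, 210 to 399 and 246 to 344 in the same order. The part of these shifts in the results was not tested, and in bulk RNA fewer cells of a type and less RNA per cell cannot be told apart. Floxed control 3 was the lowest of the 6 controls for Ndufa4, Higd1a, Cox4i1 and Fam162a, and results without it are given where they differ.

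Ndufa4 and Ndufa4l2 moved in opposite directions. NDUFA4 was first assigned to complex I and is now placed in complex IV, and NDUFA4L2 is its paralogue. Ndufa4l2 (ENSMUSG00000040280, chromosome 10, 127514967 to 127517154, plus strand, GRCm38) had 222, 205 and 211 normalized reads in the knockout. It had 0.0544, 0.102 and 0.0481 in the floxed control and 0.278, 0.209 and 0.452 in the Cre control. In reads, that is 5168, 4012 and 5272 in the knockout, against 1, 2 and 1 in the floxed control and 6, 4 and 8 in the Cre control. The transcript was thus nearly absent from control macrophages and abundant in all 3 knockout pools, with no overlap. The ratio of summed reads, corrected for library scaling, was 1133 for the knockout over both controls, with a 95% interval of 748 to 1808 that covers counting error only. Against the floxed control the ratio was 3124 (1220 to 11468), and against the Cre control 690 (437 to 1165). On the log2(value + 1) scale, which understates the change of a gene this low in controls, the difference was 7.50 (SE 0.0918), given as a description because only the knockout libraries brought the gene into the table.

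Exons of Ndufa4l2 and Shmt2 overlap on opposite strands, and whether reads were counted by strand is not known here. None of the 874 stretches of 61 bases in the longest coding Ndufa4l2 transcript occurs in a transcript of another gene (0 shared). Shmt2, the mitochondrial serine hydroxymethyltransferase, had 73.6 ± 0.863 normalized reads in the knockout, 37.5 ± 2.33 in the floxed control and 36.5 ± 0.393 in the Cre control (SD, n = 3 each).

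Ndufa4 (ENSMUSG00000029632, chromosome 6, 11900292 to 11907497, minus strand) had 24.9, 21.8 and 23.5 normalized reads in the knockout. The floxed control had 75.3, 78.4 and 61.9 and the Cre control 83.0, 80.6 and 81.3. All 3 knockout values lay below the 6 control values, at a mean of 30.5% of the control mean. On the log2 scale it fell by 1.67 (SE 0.0775, limma adjusted p = 1.67e-07), with changes of -1.57 against the floxed control and -1.76 against the Cre control. No 61-base stretch of its longest coding transcript was shared with another gene. Ndufa4 lies on the same chromosome as Vhl.

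Read per length of the longest coding transcript, the pair changed places. Ndufa4l2 stood at 227 ± 9.16 normalized reads per kb in the knockout, 0.0731 ± 0.0318 in the floxed control and 0.335 ± 0.134 in the Cre control (SD, n = 3 each). Ndufa4 stood at 38.4 ± 2.53 per kb in the knockout, 118 ± 14.4 in the floxed control and 134 ± 1.98 in the Cre control. Ndufa4l2 therefore made up 85.3% to 86.0% of the pair's per-length signal in the knockout, against 0.0471% to 0.0852% in the floxed control and 0.169% to 0.362% in the Cre control. The summed level of the pair was 255 to 278 per kb in the knockout and 101 to 136 in the 6 controls, without overlap. The higher sum comes from Ndufa4l2, as Ndufa4 fell. Ndufa4l2 met the deposit's floor only through the knockout libraries, so the shares and the sums are descriptions. With the length of all exons of each gene instead, a setting chosen after seeing the data, the Ndufa4l2 share in the knockout was 92.0% ± 0.213 (SD, n = 3).

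**Figure D2:**
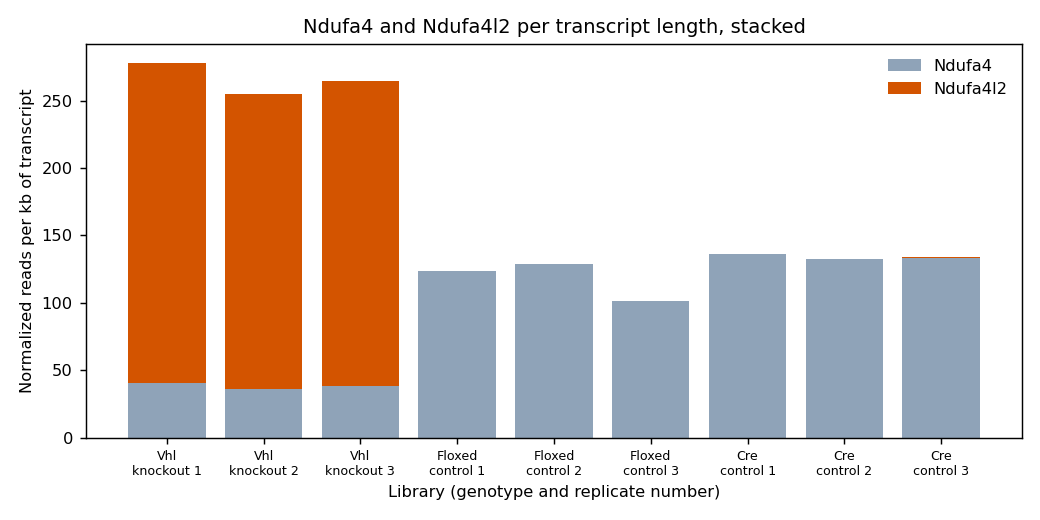
Normalized reads per kb of the longest coding transcript for Ndufa4 (lower part of each bar) and Ndufa4l2 (upper part), stacked, with 1 bar per library and the Vhl knockout at the left. In the knockout most of each bar is Ndufa4l2 and the bars reach 255 to 278 per kb, while the control bars are almost wholly Ndufa4 and reach 101 to 136.

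A further paralogue, AA467197, the mouse counterpart of human C15orf48, which is known to replace NDUFA4 in inflammation, was low in every genotype. It had 8.62, 6.28 and 5.88 normalized reads in the knockout, 14.9, 6.14 and 4.62 in the floxed control and 6.16, 7.27 and 6.95 in the Cre control. The groups overlapped, and it was not called (log2 fold change -0.06, limma adjusted p = 0.882).

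Cox4i1, which encodes the constitutive subunit 4 of complex IV, was the member that did not change detectably. Cox4i1 (ENSMUSG00000031818, chromosome 8, 120668222 to 120674207, plus strand) had 233, 213 and 207 normalized reads in the knockout, 234, 221 and 184 in the floxed control and 235, 208 and 233 in the Cre control. The 3 groups overlapped throughout. The log2 fold change against both controls was -0.01 (SE 0.0813, limma adjusted p = 0.948), and its 95% interval runs from 0.877-fold to 1.13-fold. A change within those bounds would not be seen here. Of its 61-base stretches, 13.3% also occur in Emc8, which was not called either (62.4 ± 1.68 normalized reads in the knockout, 56.0 ± 6.19 in the floxed control and 56.9 ± 2.43 in the Cre control). Gm20388 overlaps it as well.

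Lonp1, which encodes the ATP-dependent protease of the mitochondrial matrix, rose in the same cells. Lonp1 (ENSMUSG00000041168, chromosome 17, 56614297 to 56626887, minus strand) had 88.4, 86.5 and 86.1 normalized reads in the knockout, 59.3, 61.3 and 61.2 in the floxed control and 60.2, 58.9 and 63.3 in the Cre control. The change was small and very even between pools, and the groups did not overlap. The rise was 0.51 on the log2 scale (SE 0.0451, limma adjusted p = 1.54e-05), a fold of 1.33 to 1.53 at 95%. It was 0.51 against each control taken alone.

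Of 13 measured other nuclear subunits of complex IV, 1 was called higher and 2 lower, beside 39.8% of all genes called, around a median log2 fold change of 0.02. Cox7a1, the heart and muscle form of subunit 7a, rose at a low level (3.69 ± 0.140 normalized reads in the knockout, 1.15 ± 0.426 in the floxed control and 1.68 ± 0.234 in the Cre control; limma adjusted p = 5.54e-04). Cox6b2, the testis form of subunit 6b, and Cox5a, a core nuclear subunit, fell by 0.57 and 0.48 on the log2 scale (limma adjusted p = 4.11e-04 and 0.00121). Cox5a had 99.1, 84.5 and 89.6 normalized reads in the knockout, against 103 to 134 in the floxed control and 130 to 138 in the Cre control. Cox7a2l, which links complexes into supercomplexes, had a log2 fold change of 0.16 (limma adjusted p = 0.191) and Cox5b -0.18 (limma adjusted p = 0.194). Without floxed control 1 or without Cre control 2, 2 subunits were called higher, and 0 among genes with a mean of at least 5, which leaves out Cox7a1. Without floxed control 3, Cox5b was called lower (log2 fold change -0.26).

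Of 23 measured complex IV assembly genes, 2 were called higher and 4 lower, beside 39.8% of all genes called. Their median log2 fold change was -0.01. Surf1, an assembly factor mutated in Leigh syndrome, and Cmc2 rose by 0.48 and 0.43 on the log2 scale (limma adjusted p = 8.36e-04 and 0.00157). Coa7 fell by 0.60 (limma adjusted p = 0.00195), and Cox20, Coa5 and Sco2 were the others called lower. Against the floxed control alone, only Coa7 and Cox20 were called lower. Without floxed control 1, 4 were called higher. The lower count was 2 without knockout 1 or 3, floxed control 1 or 2, or Cre control 2 or 3. Lrpprc, which stabilises mitochondrial mRNAs, had 56.7 ± 2.21 normalized reads in the knockout, 58.5 ± 3.43 in the floxed control and 63.3 ± 7.84 in the Cre control, and was not called.

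Among the 36 nuclear complex I subunits, 1 was called higher and 2 lower, beside 39.8% of all genes called. Their median log2 fold change was -0.0039. Ndufv3, a subunit of the module that binds NADH, stood out with 68.8, 69.2 and 70.6 normalized reads in the knockout, against 36.3, 37.0 and 30.8 in the floxed control and 38.9, 34.6 and 41.3 in the Cre control. Its log2 fold change was 0.92 (limma adjusted p = 8.47e-06), and the groups did not overlap. Ndufs8 and Ndufa12 fell by 0.40 and 0.37 on the log2 scale. Without floxed control 3 the lower count was 8, and it was 4 without the normalization factor. Without floxed control 1 the higher count was 4, and it was 2 with edgeR, DESeq2 or DESeq2 size factors. Ndufa9 and Ndufa10 were not called (log2 fold change 0.13 and -0.11).

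Of the 13 mitochondrially encoded subunits, 7 were called lower in the knockout, beside 20.2% of all genes. The list median was -0.70 on the log2 scale. Of the 6 not called, 5 had a negative log2 fold change and mt-Co3 a positive one (1.52), and the groups overlapped for mt-Nd5 and mt-Nd6. Mt-Cytb, the cytochrome b of complex III, had 2358 ± 371 normalized reads in the knockout, 4961 ± 2397 in the floxed control and 4934 ± 558 in the Cre control (limma adjusted p = 0.00679). Their summed share of reads was 1.99%, 1.74% and 2.35% in the knockout, against 5.52%, 2.97% and 2.64% in the floxed control and 3.77%, 3.24% and 3.57% in the Cre control. Floxed control 1 stood apart with the highest share. Without floxed control 3, 11 of 13 were called lower, and without knockout 2 only 2 were. This share also varies with RNA quality and poly(A) selection, whose part was not tested.

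Other mitochondrial proteases and chaperones gave 6 of 17 higher and 2 lower, beside 39.8% of all genes called. Their median log2 fold change was 0.07. Afg3l2, an AAA protease subunit of the inner membrane, had a larger fold change than Lonp1. It had 176, 182 and 192 normalized reads in the knockout, 56.2, 57.8 and 61.0 in the floxed control and 56.4, 58.2 and 58.2 in the Cre control (log2 fold change 1.65, SE 0.0487, limma adjusted p = 7.92e-09). Parl and Yme1l1, proteases of the inner membrane, rose by 0.40 and 0.23 on the log2 scale. The genes called lower were Hspd1 and Hspe1, the matrix chaperonin and its partner. Against the floxed control alone 0 were called lower, and against the Cre control alone 3, Pitrm1 among them. Without knockout 3, 3 were called higher. The lower count was 0 without knockout 2 or 3 and 1 without knockout 1, floxed control 2, Cre control 2 or Cre control 3. Pitrm1 and Trap1 were not called against both controls together (log2 fold change -0.16 and 0.11).

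Higd1a, which encodes a small inner-membrane protein that binds complex IV and supports cell survival in low oxygen, rose about as much as Ndufa4 fell on the log2 scale. Higd1a (ENSMUSG00000038412, chromosome 9, 121848563 to 121858362, minus strand) had 38.3, 36.8 and 36.7 normalized reads in the knockout. It had 12.0, 11.3 and 9.19 in the floxed control and 12.6, 12.1 and 12.4 in the Cre control, with no overlap. The rise was 1.61 on the log2 scale (SE 0.0823, limma adjusted p = 3.23e-07), with 1.70 against the floxed control and 1.52 against the Cre control. Of its 61-base stretches, 35.4% also occur in Gm47112, Gm9790 or Gm14925, so its level depends on how reads were divided among them. Higd2a, the other measured gene of the family, had a log2 fold change of 0.24 and was not called.

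Pdk1 encodes a kinase that switches off pyruvate dehydrogenase, and it rose in every knockout pool. Pdk1 (ENSMUSG00000006494, chromosome 2, 71873224 to 71903858, plus strand) had 246, 274 and 284 normalized reads in the knockout, 46.0, 45.9 and 48.9 in the floxed control and 57.1, 45.7 and 53.4 in the Cre control. The knockout mean was 5.42 times the mean of both controls, and the groups did not overlap. The difference was 2.42 on the log2 scale (SE 0.0752, limma adjusted p = 1.20e-08).

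In the rest of the pyruvate entry pathway, 3 of 13 were called higher and 1 lower, beside 39.8% of all genes called. The median log2 fold change of the 13 was -0.03. The 3 called higher were the other kinases of the family. Pdk4 had 42.6, 62.8 and 49.0 normalized reads in the knockout, 14.5, 12.4 and 16.3 in the floxed control and 17.6, 15.5 and 20.6 in the Cre control (log2 fold change 1.61, SE 0.133, limma adjusted p = 9.58e-06). Pdk3 and Pdk2 rose by less (log2 fold change 0.46 and 0.27). Mpc1, a subunit of the carrier that brings pyruvate into mitochondria, fell to 67.7 ± 4.67 normalized reads in the knockout, against 105 ± 8.02 in the floxed control and 115 ± 7.64 in the Cre control (limma adjusted p = 3.60e-05). The pyruvate dehydrogenase subunit genes Dld and Pdha1 were not called (log2 fold change -0.11 and -0.06). Without floxed control 2, or without the normalization factor, 2 genes were called lower.

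**Figure D3:**
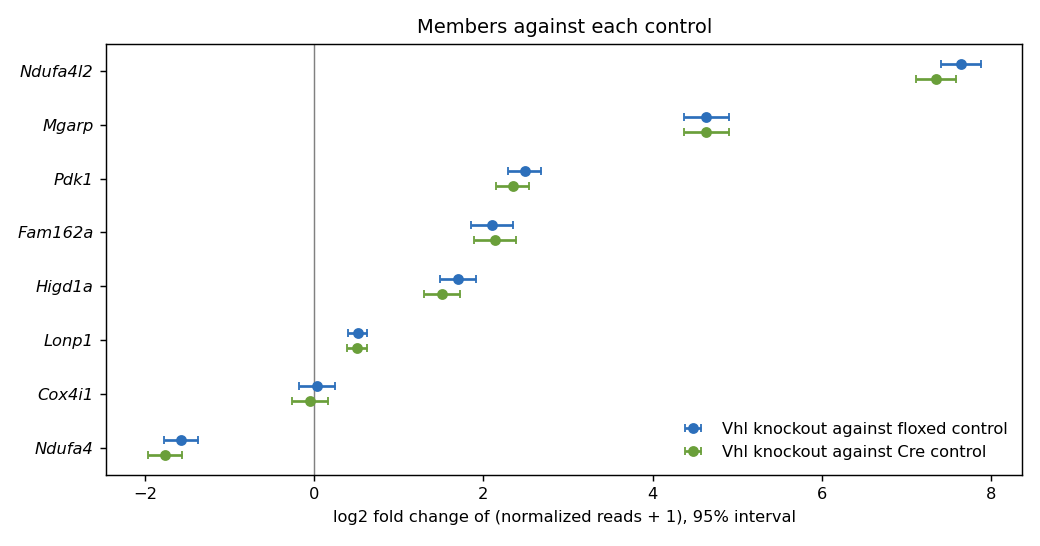
Log2 fold change of (normalized reads + 1) for the 8 measured genes, Vhl knockout against the floxed control and against the Cre control (points, limma estimates; bars, 95% intervals). The 2 estimates of each gene lie close together, at 7.64 and 7.35 for Ndufa4l2 at the top and at -1.57 and -1.76 for Ndufa4 at the bottom, and both Cox4i1 intervals hold 0.

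Mgarp, also known as HUMMR, links mitochondria to the transport machinery in neurons and was switched on in the knockout. Mgarp (ENSMUSG00000037161, chromosome 3, 51388412 to 51396738, minus strand) had 24.7, 24.1 and 25.3 normalized reads in the knockout. In reads that is 576, 473 and 633 in the knockout, against 1, 1 and 0 in the floxed control and 1, 0 and 1 in the Cre control. All 6 control values lie under the limit of 3 reads per library that a count of 0 allows. The ratio of summed reads of the knockout over both controls was 725, with a 95% interval of 283 to 2665 that covers counting error only. On the log2(value + 1) scale the difference was 4.64 (SE 0.104), given as a description because only the knockout libraries brought the gene into the table.

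Of 12 other genes of mitochondrial transport and shape, 2 were called higher and 1 lower, beside 39.8% of all genes called, around a median log2 fold change of 0.08. Trak2, an adaptor that ties mitochondria to kinesin, fell by 0.45 on the log2 scale (limma adjusted p = 6.94e-04). Opa1, the inner-membrane fusion GTPase, and Rhot2, an outer-membrane GTPase of the transport complex, were called with log2 fold changes of 0.21 and 0.20. Neither was called when the normalization factor was left out, and 1 gene was called higher without knockout 1, 2 or 3 or without Cre control 3. Rhot2 was not called against the floxed control alone (limma adjusted p = 0.0785). The fusion gene Mfn2 and the fission gene Dnm1l were not called (log2 fold change 0.12 and 0.13).

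Fam162a encodes a mitochondrial protein that promotes cell death in low oxygen and is a known HIF target. Fam162a (ENSMUSG00000003955, chromosome 16, 36043761 to 36071594, minus strand) had 81.9, 82.9 and 84.9 normalized reads in the knockout, 22.8, 17.4 and 16.3 in the floxed control and 18.9, 16.8 and 18.7 in the Cre control. The knockout pools lay within a narrow range, far above every control. The difference was 2.12 on the log2 scale (SE 0.0960, limma adjusted p = 1.45e-07). Of its 61-base stretches, 16.4% also occur in Wdr5b, which had 3.05 ± 0.437 normalized reads in the knockout, 2.38 ± 0.936 in the floxed control and 2.48 ± 0.0913 in the Cre control.

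Of 11 genes for mitochondrial permeability and cell death, 3 were called higher and 7 lower, beside 19.7% and 20.2% of all genes. Their median log2 fold change was -0.27. Against each control alone 6 were called lower, without Slc25a5 against the floxed control and without Ppif against the Cre control. The voltage-dependent anion channels of the outer membrane split. Vdac1 had 262 ± 0.970 normalized reads in the knockout, 154 ± 5.58 in the floxed control and 163 ± 3.76 in the Cre control (log2 fold change 0.72, limma adjusted p = 9.87e-07). Vdac2 and Vdac3 fell by 0.38 and 0.28 on the log2 scale. Of the ADP/ATP carriers, Slc25a4 rose by 0.40 and Slc25a5 fell by 0.20. The pore-forming death genes Bax and Bak1 and the cytochrome c gene Cycs fell, with log2 fold changes of -0.30, -0.27 and -0.46, and the survival gene Mcl1 rose, with 0.44. Bcl2l1 was not called (log2 fold change 0.08).

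Of 8 other HIF targets at mitochondria, 5 were called higher and 1, Iscu, lower, beside 39.8% of all genes called. Their median log2 fold change was 0.95. Bnip3, a receptor for mitophagy, had 697, 679 and 843 normalized reads in the knockout, 15.7 to 16.5 in the floxed control and 15.5 to 17.6 in the Cre control (log2 fold change 5.42, limma adjusted p = 2.93e-11). Ak4, a matrix adenylate kinase, had 94.8 to 101 in the knockout, 0 to 0.544 in the floxed control and 0.226 to 0.366 in the Cre control, so it too met the deposit's floor only through the knockout. Fundc1 and Chchd4 were not called (log2 fold change 0.12 and 0.02). Hk2, the hexokinase that binds the outer membrane, averaged 188 ± 13.9 in the knockout, 52.4 ± 0.402 in the floxed control and 53.6 ± 7.65 in the Cre control. Iscu, a scaffold for iron-sulfur clusters that HIF represses through a microRNA, fell by 0.24 on the log2 scale. It was not called without knockout 2, without knockout 3 or against the floxed control alone. Of the 8 genes of the HIF pathway itself, 4 were called higher and 2 lower, beside 39.8% of all genes called. The lower genes were Hif1a and Vhl, and Vhl is the gene deleted here. Against the Cre control alone, 2 were called higher. The prolyl hydroxylase genes Egln1 and Egln3 had log2 fold changes of 2.45 and 9.23, and Hif1a fell (limma adjusted p = 4.37e-07). Without knockout 2 or knockout 3, 2 were called higher.

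**Figure D4:**
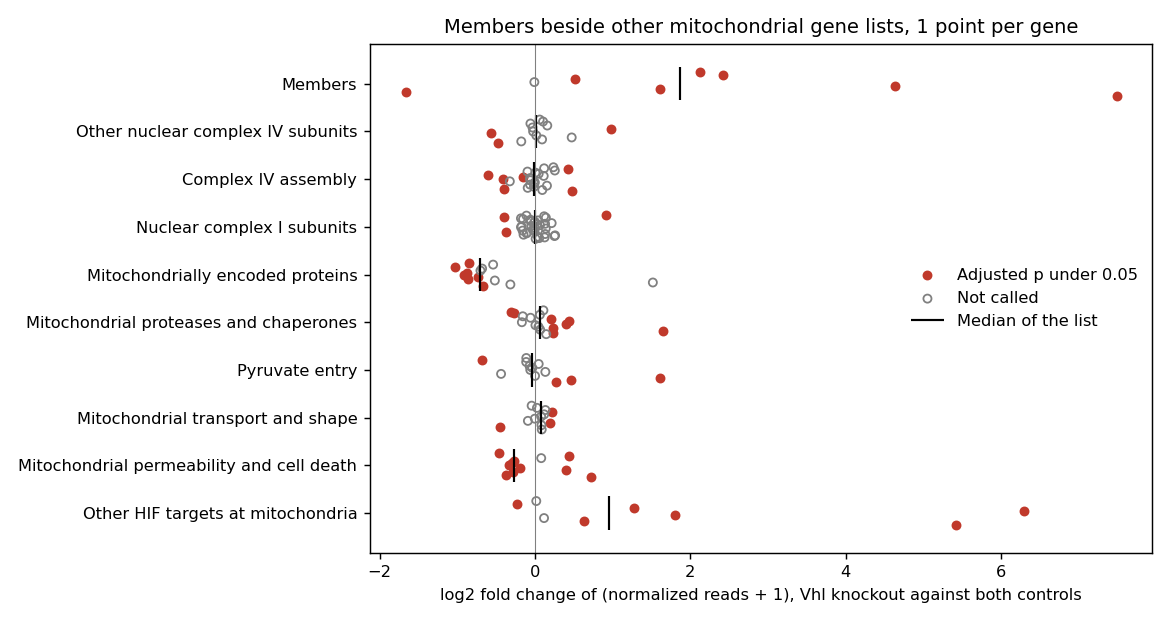
Log2 fold change of (normalized reads + 1), Vhl knockout against both controls, with 1 point per measured gene for the 8 genes described here (top row) and 9 other lists of mitochondrial genes (filled points, limma adjusted p under 0.05; open points, not called; black strokes, list medians). The top row spreads from -1.67 to 7.50, while nuclear complex I subunits and the other nuclear complex IV subunits gather around 0 and mitochondrially encoded proteins lie around -0.70.

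The levels of the 8 genes, per kb of the longest coding transcript, followed another order than their changes. In the knockout Cox4i1 came first at 284 ± 17.7, then Ndufa4l2 at 227 ± 9.16, Fam162a at 116 ± 2.14 and Pdk1 at 51.7 ± 3.81 (SD, n = 3). Ndufa4 at 38.4 ± 2.53, Lonp1 at 29.5 ± 0.413, Mgarp at 17.5 ± 0.413 and Higd1a at 16.7 ± 0.397 followed. Only the Mgarp and Higd1a libraries overlapped between neighbours in that order. In the floxed control the order was Cox4i1 at 279 ± 34.0, Ndufa4 at 118 ± 14.4, Fam162a at 26.2 ± 4.85, Lonp1 at 20.5 ± 0.391, Pdk1 at 9.05 ± 0.333 and Higd1a at 4.85 ± 0.656. The Cre control had the same order, and in both controls Ndufa4l2 and Mgarp came last. With the length of all exons, Ndufa4l2 came before Cox4i1, Lonp1 before Ndufa4 and Higd1a before Mgarp in the knockout.

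Between the controls, none of the 8 genes was called by limma (0 of 8, where 0.167% of all genes were called), nor by edgeR or DESeq2 on the recovered reads, and 1 of the 8, Ndufa4l2, had an unadjusted p under 0.05. Ndufa4l2 summed to 18 reads in the Cre control and 4 in the floxed control, a ratio of 4.53 with a 95% counting interval of 1.49 to 18.4 (limma adjusted p = 0.585). All 3 Cre control values lay above all 3 floxed control values. Ndufa4 averaged 81.7 ± 1.21 normalized reads in the Cre control and 71.9 ± 8.80 in the floxed control (SD, n = 3 each; limma adjusted p = 0.627). Its Cre control values also lay above the floxed control values, and the difference was not called. The share of all genes whose control groups separate in this way was not determined, so both separations are descriptions.

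The genes whose pattern was most like that of Ndufa4l2 over the 9 libraries, among 9821 genes whose mean reached 5 normalized reads, were Pgm1, Tpi1, Egln1, Bnip3 and Pgk1, with a Pearson r of 0.999 for each. Those most like Ndufa4 were Kctd20, Pld4, Cd300c2, Tpm3 and Clec4n, with r of 0.993 to 0.994. These values describe a split between 3 knockout and 6 control libraries that many genes share, as 507 genes had an r above 0.95 with Ndufa4l2 and 287 with Ndufa4.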

How the data were processed

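The submitters' processing notes name the build GRCm38 and the tools RSEM 1.2.3, cutadapt 1.3 and CASAVA 1.8.2, without an annotation or later steps. The authors deposited 1 table of signal values for 12003 genes in 9 libraries. Every value (100% within 0.01 read) is a whole number of reads times 1 factor per library, which is called normalized reads here; 0 columns were left unmapped. Every gene reaches 0.962 in at least 3 libraries, so lower genes are not analysed here. Values scaled in this way cannot show a shift common to the whole transcriptome.

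Symbols (11935 genes) and positions are from GENCODE M21. Because the table holds scaled values, limma 3.58.1 (R 4.3.3) was fitted to log2(value + 1) with an intensity trend over all libraries, 1 mean per genotype, two-sided, with Benjamini-Hochberg adjustment over all genes. The knockout was set against the average of the 2 control means and against each control, and the Cre control against the floxed control. EdgeR 4.0.16 and DESeq2 1.42.0 on the recovered reads called 4757 and 4925 genes in the first contrast, against 4781 with limma. Other alternatives were the pseudocount, a filter on low values, other scalings, a replicate block and leaving out each library. Ratios of summed reads and their exact intervals cover counting error only, since PCR copies of a molecule were not marked, and 3 reads per library (0.120 to 0.170 normalized reads) is the limit a count of 0 allows. P-values measure the spread between pools of mice. No 2 libraries of a genotype agreed within counting noise.

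The 8 measured genes and all lists were chosen with earlier results of these data known. Named are these genes, Vhl, up to 3 called genes of smallest adjusted p and up to 2 uncalled genes with a mean of at least 50 per list, and the 5 genes most like Ndufa4l2 and Ndufa4. Other genes named were chosen after their values were seen. The 61-base stretches were taken from the longest coding transcripts and looked up in all GENCODE transcripts.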

Additional observations from a re-analysis of the deposited data

How the results depend on the processing

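Against both controls, all 8 genes kept their direction and their side of the threshold in each of the 16 alternatives, except that the sign of Cox4i1, not called in any, ranged over both (log2 fold change -0.06 to 0.03). The size depended on the setting only where controls were near 0. Ndufa4l2 ranged from 7.46 to 10.5 and Mgarp from 4.60 to 9.50 on the log2 scale, highest with DESeq2 on recovered reads, which adds no pseudocount of 1. Leaving out each library gave 3648 to 4974 genes called against both controls, 3098 to 4101 against the floxed control and 3052 to 4436 against the Cre control. Between the controls 20 genes were called, 74 with DESeq2, 71 with a replicate block and 13 to 31 without single libraries (13 without Cre control 3, 31 without Cre control 1). The cause was not tested. Correlations between the deviations of same-numbered libraries of different genotypes ranged from -0.0817 to 0.575, with 5 of 9 over 0.1. Different-numbered libraries gave -0.473 to 0.424 (18 pairs). The same number correlated best in 8 of 18 cases, and whether replicate numbers mark a shared origin is not known here. The replicate block gave 4898 genes against both controls. Leaving out the normalization factor shifted the median gene by -0.05 on the log2 scale. Depth limits Mgarp and Ndufa4l2 in controls, where 0 to 8 reads were counted per library.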

Other observations

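Mt-Co3, the mitochondrially encoded subunit 3 of complex IV, was nearly absent from a single library. It had 2 reads (0.113 normalized reads) in Cre control 3, against 175, 87.2 and 204 normalized reads in the knockout, 158, 50.5 and 177 in the floxed control, and 126 and 88.5 in the other Cre control libraries. Mt-Co1, mt-Co2 and mt-Co3 had log2 fold changes of -0.67, -0.32 and 1.52 between the knockout and both controls, and limma called the first of them (adjusted p = 0.0361). The SE for mt-Co3 was 1.27, and it was not called. Against the floxed control alone, where Cre control 3 has no part in the means, mt-Co3 had a log2 fold change of 0.38. The median of the mitochondrially encoded list there was -0.68. The mt-Co3 values of the knockout and the floxed control overlapped, and whether mt-Co3 differed from the other genes of the list was not tested.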
